A study of Mus musculus with 3 samples.

Results

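Macrophages rich in Gpnmb, Trem2, Fabp5 and Hmox1 were taken from single-cell libraries of mouse tumour tissue by counts alone. A UMI is the tag that marks one captured RNA molecule. Barcodes were kept when they showed 200 genes or more and mitochondrial UMIs of no more than 20%. A kept barcode passed a macrophage gate with at least 3 UMIs of C1qa, C1qb and C1qc together, at least 1 of Tyrobp, none of Cd3e, and UMIs in fewer than 2 of the 6 alveolar macrophage genes Krt79, Plet1, Ear1, Marco, Siglecf and Fabp4. Members were chosen by measured values: a gated barcode became one when its summed UMIs of Gpnmb, Trem2, Fabp5 and Hmox1 exceeded those of Mrc1, Folr2, Ccl8 and Pf4. The rule found 2539 members among 32801 kept barcodes and 3807 gated ones, of which 802 came from Flox+ICI, 1278 from Flox+RI and, last, 459 from the library labelled CKO+RI. Another 1069 gated barcodes had the opposite balance and are called the Mrc1 set here, and 199 had equal sums.

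The tumour cells in all 3 groups were LLC1-sgLkb1, a Lewis lung carcinoma line whose genotype is labelled LKB1 knockdown. Per the series' design text they were given by tail vein to form lung lesions, the unirradiated side, and 3 weeks later under the skin as the irradiated side. Flox+ICI hosts were Sfrp2 fl/fl mice given an immune checkpoint inhibitor (ICI), Flox+RI hosts were Sfrp2 fl/fl mice given radiation and ICI, and CKO+RI is the label of Sfrp2ΔCol1a2 mice, which lose Sfrp2 in cells with Col1a2 promoter activity, given radiation and ICI. The labels name the tissue as tumour without saying which lesion was sequenced, and they give neither the mice per library, their age and sex, nor the inhibitor or the radiation dose. Each group had 1 library, so no difference between groups has a replicate check, and every 95% interval here covers counting error only. The question set by the series' title is how Sfrp2-positive fibroblasts bear on the response of unirradiated tumour to radiation with immunotherapy.

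Tumour macrophages of this kind resemble the lipid-associated macrophages of fat, artery wall and injured tissue. TREM2 is a surface receptor for lipids, lipoproteins and dying cells that signals through the adaptor TYROBP. GPNMB is a glycoprotein of the lysosome and cell surface under control of MiT-TFE transcription factors, FABP5 carries fatty acids inside the cell, and HMOX1 breaks down haem and is a target of NRF2. APOE carries lipid out of the cell, and C1QA is a chain of complement C1q, which macrophages make. The opposite set of genes, MRC1, FOLR2, CCL8 and PF4, is often used for macrophages that reside in tissue.

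The libraries held 10842, 13340 and 9300 barcodes with 75543561, 101840883 and 161250286 UMIs for Flox+ICI, then Flox+RI, then the library labelled CKO+RI, the order used for every set of 3 values here. Median depth of the kept barcodes was 3254.5, 2923 and 14467.5 UMIs. Pairs of libraries shared 29 to 37 kept barcode sequences, and 2, 9 and 3 members carried a shared one. Sfrp2 had 24, 12 and 46 UMIs over all kept barcodes, or 0.319, 0.119 and 0.286 per 1000000 UMIs. In the 125, 93 and 99 barcodes with at least 3 Col1a2 UMIs it had 17, 10 and 16. Per UMI, Sfrp2 under the CKO label was above Flox+RI and slightly below Flox+ICI. The UMIs in Col1a2 barcodes are not scaled to depth, which was greatest under that label, and a 3' tag outside a deleted part would not show the deletion. For this reason the group is written as the library labelled CKO+RI, and every direction drawn from it goes by that label.

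The macrophage name held for part of the members only. A floor of 3 C1q UMIs is a smaller share of a deep barcode, and 123, 330 and 309 members had under 5 C1q UMIs per 10000 UMIs, which is 15.3%, 25.8% and 67.3% of the members of each library. These C1q-poor members had median depths of 21337, 23268 and 40578 UMIs. Their summed level of 9 macrophage genes outside the rule (Adgre1, Cd68, Csf1r, Lyz2, Cd14, Fcgr1, Mertk, Aif1 and Ctss) was 941, 414 and 517 CPM (UMIs of a gene per 1000000 UMIs of the summed cells). The same genes stood at 1001, 535 and 514 CPM in barcodes of at least 2000 UMIs with no UMI of C1q or Tyrobp. An 18-gene list of LLC tumour genes, led by keratins Krt8 and Krt18 and by Hmga2, summed to 4689, 6065 and 4861 CPM in the C1q-poor members and to 4275, 6859 and 4802 CPM in the barcodes without C1q and Tyrobp. By these values the C1q-poor members looked like the barcodes without C1q and not like macrophages.

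The other 679, 948 and 150 members, 1777 of the 2539, were C1q-rich. Their macrophage genes summed to 25527, 16205 and 14553 CPM and their tumour list to 1087, 2370 and 2718 CPM. Ptprc, the leukocyte antigen CD45, was at 264, 159.97 and 187 CPM in them against 16.001, 4.07 and 8.69 CPM in the C1q-poor members. Xist, the RNA that coats the inactive X chromosome of female cells, was at 243, 170 and 213 CPM against 18.4, 7.57 and 8.04 CPM. Between 3 and 10 C1q UMIs per 10000 lay 54, 99 and 25 members, so few sat near the line. The line also left out barcodes with many macrophage UMIs. Members at 3 to 5 C1q UMIs per 10000 numbered 15 in Flox+ICI and 18 in Flox+RI, and their macrophage genes summed to 7973 and 3067 CPM. In the library labelled CKO+RI it left out 9 barcodes at 2 to 3 and 10 at 3 to 5 C1q UMIs per 10000 whose macrophage genes summed to 9238 and 13866 CPM. All values below are for C1q-rich members unless all members are named.

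**Figure D1:**
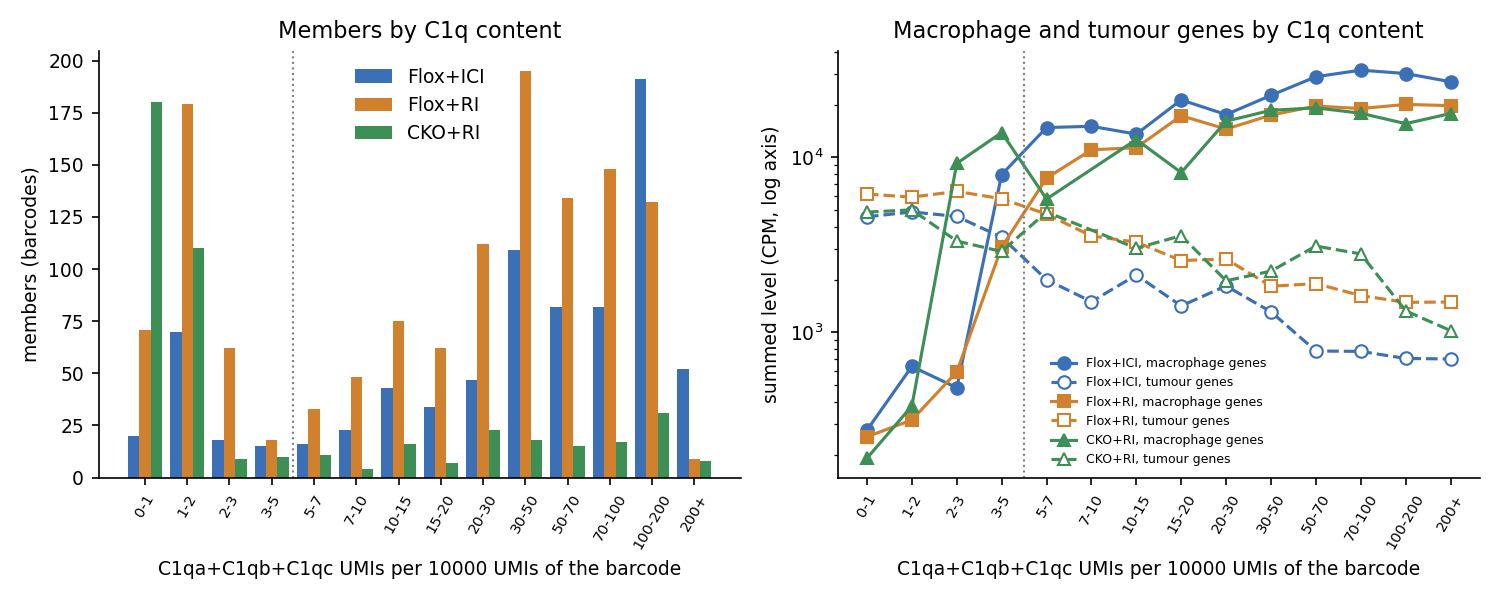
Members by C1q content. Left, members (barcodes) of each library in bins of C1qa, C1qb and C1qc UMIs per 10000 UMIs of the barcode; right, the summed level of 9 macrophage genes (filled symbols, solid lines) and of 18 tumour genes (open symbols, dashed lines) in CPM on a log axis, for bins with 5 members or more. The dotted line marks 5 per 10000: macrophage genes are high on its right in all 3 libraries, and 309 of the 459 members of the library labelled CKO+RI lie on its left.

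Members were a smaller share of the library labelled CKO+RI than of the others. C1q-rich members made up 6.35% (5.90 to 6.83), 7.25% (6.81 to 7.71) and 1.66% (1.41 to 1.95) of kept barcodes, with exact Clopper-Pearson intervals. The share under the CKO+RI label was 0.229 (0.191 to 0.272) of that in Flox+RI, and the Flox+RI share was 1.14 (1.03 to 1.26) times that in Flox+ICI. Within gated barcodes that were C1q-rich, members were 75.2%, 66.5% and 25.1%, while the Mrc1 set held 160, 437 and 418 C1q-rich barcodes. The balance of the 2 sets was thus reversed under the CKO+RI label, where the Mrc1 set was the larger. Over all members the shares of kept barcodes were 7.50% (7.01 to 8.02), 9.78% (9.27 to 10.3) and 5.08% (4.64 to 5.55). These shares depend on how the tissue was digested and loaded, which the labels do not describe per library, and the libraries' depths differ.

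The 4 genes that chose the members did not move together across libraries, and they are given as a description. Gpnmb stood at 2164, 961 and 625 CPM, highest in Flox+ICI. Trem2 stood at 1242, 841 and 548 CPM in the same order of libraries. Fabp5 was at 4933, 4512 and 2108 CPM, close in Flox+ICI and Flox+RI and lower under the CKO+RI label. Hmox1 was instead highest in Flox+RI, at 1278, 2119.96 and 792 CPM. Of the genes on the other side of the rule, Mrc1 was at 185, 101 and 199.99 CPM, Folr2, a folate receptor, at 33.8, 10.8 and 51.4 CPM, the chemokine Ccl8 at 239, 74.7 and 125 CPM and Pf4, platelet factor 4, at 454, 789 and 681 CPM. Apoe was at 24465, 15462 and 10255 CPM, and C1qa at 3063, 1626 and 2323 CPM.

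Members were uneven in these genes. Per 10000 UMIs of a barcode, the median of Gpnmb was 11.3, 7.02 and 0.436, and its 90th percentile was 56.3, 25.04 and 23.6. Hmox1 had medians of 2.13, 14.8 and 1.62, with 90th percentiles of 39.8, 56.6 and 22.5. After every member was thinned to 2000 UMIs, which left 649, 911 and 145 members and dropped 30, 37 and 5 shallower ones, Gpnmb was found in 65.3%, 66.6% and 35.9%. Without thinning Gpnmb was found in 74.96%, 80.3% and 54%. Hmox1 was found in 43.9%, 79.9% and 40% after thinning and in 64.4%, 90.2% and 68% before it. Trem2 was found in 79.2%, 78.3% and 59.3% after thinning and Fabp5 in 84.3%, 90.8% and 73.8%, and before it in 89.4%, 93.7% and 86.7% and in 89.4%, 94.6% and 85.3%. In barcodes without C1q and Tyrobp, thinned alike, the shares were 9.19%, 6.83% and 3.69% for Gpnmb, 2.48%, 2.55% and 0.410% for Trem2, 20.7%, 29.1% and 13.3% for Fabp5 and 3.97%, 6.83% and 2.73% for Hmox1, with median depths before thinning of 8605, 11526 and 12474 UMIs against 6009, 5060 and 9239 in the members.

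The line between the sets cut through low counts. C1q-rich barcodes just inside it, with a margin of 1 or 2 UMIs, numbered 101, 51 and 24, and their Gpnmb, Trem2, Fabp5 and Hmox1 summed to 966, 1541 and 749 CPM. Those just outside it, with a margin of 1 or 2 UMIs the other way, numbered 23, 55 and 46 and held 602, 1599.8 and 941 CPM of the same genes. Ties added 64, 40 and 30 barcodes. Members with a margin of 10 or more, 476, 791 and 89 barcodes, held 12029, 9444 and 5438 CPM, so most Flox members were far from the line and fewer of those under the CKO+RI label were.

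**Figure D2:**
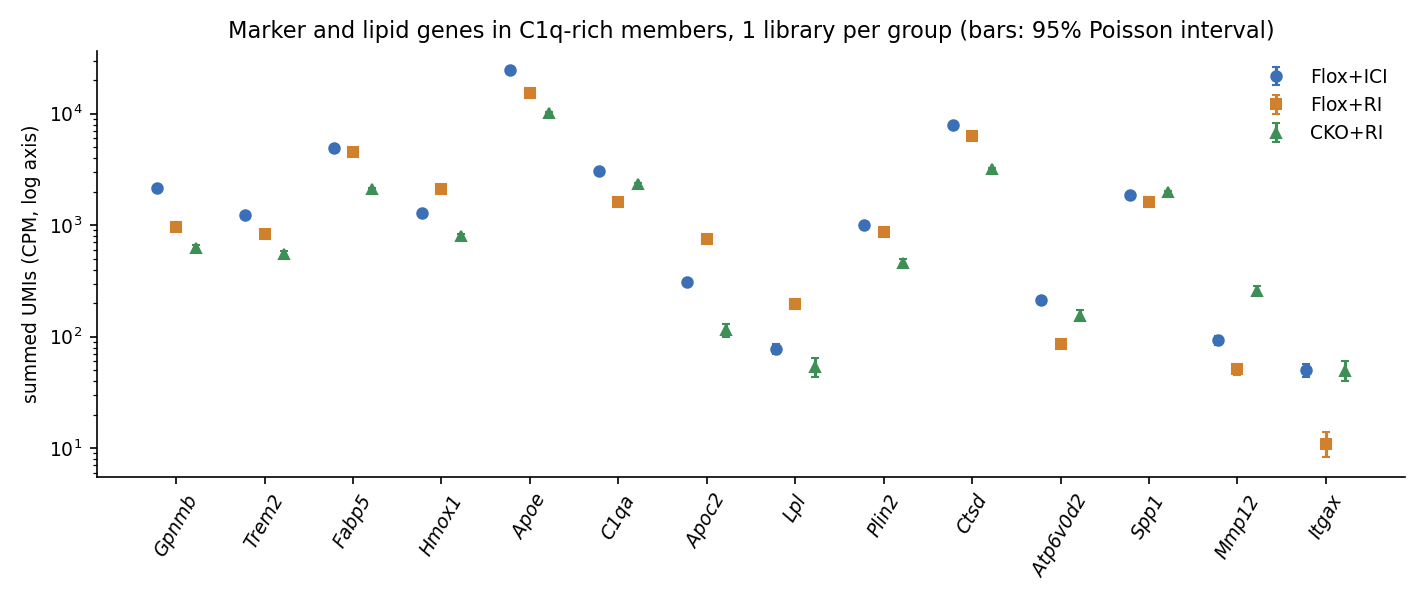
Levels of the marker genes and of genes for lipid and lysosome in C1q-rich members. Each point is 1 library's summed level in CPM on a log axis, with its exact Poisson 95% interval. Gpnmb is at 2164 CPM in Flox+ICI and 625 CPM in the library labelled CKO+RI, Apoc2 is highest in Flox+RI at 748 CPM, and Mmp12 is highest under the CKO+RI label at 259 CPM.

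Beside the Mrc1 set of the same library, members had more Atp6v0d2, Syngr1, Fth1 and Slc7a11 and less Cd163. This contrast is the one the rule drew, so the ratios are a description and nothing is read from them. Of 8278 genes measured in all 3 libraries, 51 (0.616%) were 2-fold or more higher in members in every library and 56 (0.676%) lower. Scaling by medians of ratios changed this split to 59 and 42. Over all barcodes of the 2 sets, C1q-poor ones included, 16 (0.16%) of 10000 genes were higher and 268 (2.68%) lower, 284 (2.84%) in all, and in C1q-rich ones the total was 107 (1.29%). Atp6v0d2, a subunit of the vacuolar proton pump found in osteoclasts and macrophages, was at 213, 86.5 and 154 CPM in members and 8.05, 13.6 and 15.3 CPM in the Mrc1 set. Syngr1, a vesicle membrane protein, was at 457, 246 and 153 CPM against 72.5, 80.2 and 35.5 CPM. Fth1, the ferritin heavy chain that stores iron, was at 34994, 39729 and 25348 CPM against 10711, 11824 and 12144 CPM, and Slc7a11, the cystine importer that feeds glutathione synthesis, at 164, 225 and 107 CPM against 59.4, 56.4 and 20.7 CPM. Cd163, the receptor for haemoglobin bound to haptoglobin, was at 1.15, 5.49 and 1.57 CPM against 95.7, 129.99 and 46.5 CPM, the opposite way. Of a list of 15 measured resident-like macrophage genes, 11 were 2-fold or more lower in members in every library, with a median log2 ratio of -1.98 beside -0.12 over all genes. Of 23 measured lipid-associated macrophage genes, 3 were 2-fold or more higher in every library, with a median of 0.88, and of 11 classical monocyte genes 5 were, with a median of 0.94. None of 6 measured MHC class II genes was 2-fold apart in all 3 libraries. Of 34 measured lysosome genes 2 were 2-fold or more higher in every library and none lower, with a median of 0.17. The 35 in the files summed higher in members, at 30353, 24038 and 16374 CPM against 14053, 16309 and 12794 CPM in the Mrc1 set. Of 22 haem and iron genes 2 were 2-fold or more higher in every library and 1 lower, with a median of -0.13. Genes listed for alveolar macrophages, outside the rule, moved with this contrast. The 7 of them in the files, Atp6v0d2 and Chil3 included, summed to 508, 434 and 647 CPM in members and to 111, 158 and 91.7 CPM in the Mrc1 set, with 0, 2 and 2 at 0 in members and 3, 1 and 1 in the Mrc1 set. Chil3, a chitinase-like protein, was at 247, 327 and 462 CPM in members and 52.4, 101 and 42.8 CPM in the Mrc1 set. The same 7 genes summed to 3003, 2491 and 2468 CPM, with 0, 3 and 3 at 0, in monocyte-like barcodes. Those had UMIs of Ly6c2, Ccr2 and Tyrobp and none of Cd3e or C1q. The list therefore does not tell alveolar macrophages from monocytes, and the part of either in the contrast was not tested.

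Adding radiation to ICI in Sfrp2 fl/fl hosts went with more Arg1, Saa3 and hypoxia genes in the members and less Cxcl9, interferon gamma and MHC class II genes. Of 10128 measured genes, 223 (2.2%) were 2-fold or more higher in Flox+RI than in Flox+ICI and 253 (2.5%) lower, 476 (4.7%) in all, with a median log2 ratio of -0.08. Scaling by medians of ratios gave 263 higher and 195 lower. The Flox+RI library serves both comparisons between libraries, so the 2 are not independent. In all members, C1q-poor ones included, the counts were 237 (1.97%) and 681 (5.66%) of 12042 genes, 918 (7.62%) in all, or 363 and 436 under the other scaling.

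Saa3, an acute-phase serum amyloid made by macrophages, stood furthest apart. It was at 67.2, 2058 and 1101 CPM, and its Flox+RI level was 30.6 (95% interval 27.3 to 34.5) times that in Flox+ICI. Its UMIs were unevenly held, with 47.97% of Flox+RI members showing one after thinning against 5.55% in Flox+ICI and 12.4% under the CKO+RI label. Without thinning the shares were 10.9%, 60.9% and 21.3%, and in thinned barcodes without C1q and Tyrobp 1.43%, 6.93% and 2.26%. Arg1, the arginase that depletes arginine and marks suppressive macrophages, was at 297, 1256 and 854 CPM, a Flox+RI level 4.23 (95% interval 3.98 to 4.49) times the Flox+ICI level. Slpi, a secreted inhibitor of leukocyte proteases, was at 132, 412 and 348 CPM. Mmp8, a collagenase, was at 31.3, 152 and 23.6 CPM, a ratio of 4.85 (95% interval 4.04 to 5.85). Hp, haptoglobin, was at 125, 382 and 71.9 CPM. Ly6c2 and Ly6i, surface antigens of monocytes, were at 93.2, 406 and 78.7 CPM and 25.1, 173 and 23.1 CPM, and since these genes are near copies of each other their reads may have been split between them. Ly6c2, Mmp8, Ly6i and Hp were all high in Flox+RI and low in both other libraries, while Saa3, Slpi and Arg1 were also well above Flox+ICI under the CKO+RI label.

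Genes induced by low oxygen were higher in Flox+RI than in Flox+ICI. Of 19 measured hypoxia genes 7 were 2-fold or more higher and 1 lower, with a median log2 ratio of 0.68. Egln3, a prolyl hydroxylase that marks HIF proteins for breakdown and is itself induced by HIF, was at 8.05, 59.6 and 60.4 CPM, a Flox+RI to Flox+ICI ratio of 7.40 (95% interval 5.22 to 10.8). Adm, the vasodilator adrenomedullin, was at 7.82, 46.5 and 46.7 CPM, a ratio of 5.95 (95% interval 4.15 to 8.77). Bnip3, a mitophagy receptor, was at 28.1, 89.4 and 79.3 CPM and Ankrd37, an ankyrin protein induced by HIF, at 8.28, 33.3 and 37.8 CPM. Vegfa was at 55.2, 84.9 and 74.5 CPM, and Hif1a itself, which is controlled mainly at the protein, at 150.04, 124 and 169 CPM. Epas1, the gene of HIF-2 alpha, was the 1 gene lower, at 27.2, 12.9 and 4.20 CPM. In Egln3, Adm, Bnip3 and Ankrd37 the library labelled CKO+RI lay near Flox+RI. Over the list, 1 gene under that label was 2-fold higher than in Flox+RI, 1 was lower and the median was 0.02.

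Glycolysis genes were also mostly higher in Flox+RI than in Flox+ICI. None of its 17 measured genes was 2-fold lower in Flox+RI than in Flox+ICI, 2 were 2-fold higher, 14 had an interval above 1, and the median log2 ratio was 0.80. Slc16a3, the lactate exporter, was at 75.7, 184 and 165 CPM, Ldha, lactate dehydrogenase A, at 615, 1079.98 and 915 CPM and Tpi1, triosephosphate isomerase, at 294, 582 and 632 CPM. Egln3, Adm, Bnip3 and Ldha were lowest in Flox+ICI outside the members too. In barcodes without C1q and Tyrobp Egln3 was at 46.8, 102 and 131 CPM, Adm at 29.7, 162 and 93.9 CPM, Bnip3 at 15.01, 56.8 and 47.7 CPM and Ldha at 585, 1324 and 932 CPM. The LLC tumour list also moved with them, with 6 of 9 measured genes 2-fold or more higher, none lower, a median of 1.17 and the summed levels given above, 4, 5 and 7 of its 18 genes being at 0. In members with under 5 UMIs of Hmga2, Sema3a, Krt8 and Krt18 per 10000, 594, 716 and 117 barcodes, the medians were 0.71 for hypoxia and 0.75 for glycolysis, close to those of all C1q-rich members. The LLC tumour list still summed to 683, 1483 and 1278 CPM in them and was again lowest in Flox+ICI. The part of tumour transcripts in these medians was not tested.

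The 250 bases before the start of Egln3, at chr12:54203875-54204124 on the minus strand of GRCm38.p6 in RefSeq, are printed because Egln3 had the highest ratio among the hypoxia genes. Capitals mark the letters ACGTG, the core to which HIF proteins bind, searched on both strands.
Egln3: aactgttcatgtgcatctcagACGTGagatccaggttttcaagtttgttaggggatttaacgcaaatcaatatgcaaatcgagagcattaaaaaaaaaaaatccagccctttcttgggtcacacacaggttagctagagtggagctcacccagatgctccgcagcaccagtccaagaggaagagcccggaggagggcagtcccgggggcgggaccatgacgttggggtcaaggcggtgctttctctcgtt
The only match lies 229 bases before the start. Such a match was present in 16 of 24 promoters of the hypoxia list (66.7%) and in 19.6% of 32851 RefSeq promoters, each taken from 250 bases before to 50 after a start. A match is a description of the letters, not a shown binding site.

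Interferon gamma and antigen presentation genes went the other way. Of 23 measured interferon gamma response genes none was 2-fold higher in Flox+RI than in Flox+ICI and 11 were lower, with a median log2 ratio of -0.97. Cxcl9, the ligand that draws CXCR3-bearing T cells, was at 357, 23.4 and 288 CPM, and the Flox+RI level was 0.0654 (95% interval 0.0544 to 0.0782) of that in Flox+ICI. Gbp2, a guanylate-binding protein, was at 145, 19.1 and 133 CPM, a ratio of 0.132 (95% interval 0.106 to 0.162), and Iigp1, an interferon-induced GTPase, at 67.4, 12.2 and 70.3 CPM. Gbp2 and Iigp1 were also lowest in Flox+RI in barcodes without C1q and Tyrobp, at 90.5, 2.49 and 24.3 CPM and 141, 6.84 and 29.9 CPM, so these differences were not limited to the members. Cxcl9 was at 28.1, 0.444 and 9.04 CPM there. Irf1, a transcription factor induced by interferon, was at 181, 131 and 134 CPM, a smaller step than that of Cxcl9.

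MHC class II genes, whose products show peptides to CD4 T cells, had 5 of 7 measured members 2-fold or more lower in Flox+RI than in Flox+ICI, none higher, and a median of -1.18. H2-Aa, the I-A alpha chain, was at 1105, 428 and 1173 CPM. H2-Eb1, the I-E beta chain, was at 953, 329 and 1173 CPM and Cd74, the invariant chain, at 4351, 2198 and 4425 CPM. Relative to Flox+RI, levels under the CKO+RI label were 2.74 (95% interval 2.58 to 2.90) times for H2-Aa, 3.56 (95% interval 3.35 to 3.79) times for H2-Eb1 and 2.01 (95% interval 1.96 to 2.07) times for Cd74. Flox+ICI and the library labelled CKO+RI thus lay close together for these 3 genes. These are summed levels, and members were uneven in them. Per 10000 UMIs of a barcode, the median of Cd74 was 11.85, 11.71 and 15.35, nearly equal in Flox+ICI and Flox+RI. Its upper quartile was 72.5, 34.9 and 78.8, so the Flox difference in Cd74 lay in the members richest in it. The median of H2-Aa was 2.76, 1.56 and 2.48. After thinning to 2000 UMIs, H2-Aa was found in 47.1%, 39.1% and 49.7% of members. All 7 measured class II genes were 2-fold or more higher under the CKO+RI label than in Flox+RI, with a median of 1.30. Ciita, the master regulator of the class II genes, was at 8.74, 6.55 and 23.1 CPM, highest under the CKO+RI label. In barcodes without C1q and Tyrobp H2-Aa was at 40.5, 15.3 and 18.98 CPM and Cd74 at 207, 101 and 91.8 CPM.

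The 250 bases before the starts of these genes are printed to show the letters of the motifs searched. Gbp2 lies at chr3:142620413-142620662 on the plus strand, with the interferon-stimulated response element, 2 repeats of GAAA set 2 bases apart, in capitals. H2-Aa lies at chr17:34287824-34288073 on the minus strand and H2-Eb1 at chr17:34305617-34305866 on the plus strand, with ATTGG, the Y box, in capitals.
Gbp2: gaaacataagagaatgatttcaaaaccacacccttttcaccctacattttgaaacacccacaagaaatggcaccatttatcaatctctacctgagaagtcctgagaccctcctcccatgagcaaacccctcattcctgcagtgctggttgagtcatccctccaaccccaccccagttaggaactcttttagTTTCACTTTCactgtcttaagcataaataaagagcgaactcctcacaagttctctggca
H2-Aa: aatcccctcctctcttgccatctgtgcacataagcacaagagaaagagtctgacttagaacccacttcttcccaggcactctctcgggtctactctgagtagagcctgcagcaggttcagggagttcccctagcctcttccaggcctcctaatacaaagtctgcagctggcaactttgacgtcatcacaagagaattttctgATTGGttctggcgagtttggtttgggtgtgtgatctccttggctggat
H2-Eb1: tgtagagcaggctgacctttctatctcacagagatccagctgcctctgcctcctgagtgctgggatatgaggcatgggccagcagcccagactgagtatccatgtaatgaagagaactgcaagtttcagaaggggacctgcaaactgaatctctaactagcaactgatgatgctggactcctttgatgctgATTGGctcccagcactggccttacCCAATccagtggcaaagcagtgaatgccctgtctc
All are RefSeq sequences of GRCm38.p6, and motifs were searched on both strands, so a capital run may be the reverse complement. The match in Gbp2 lies 59 bases before the start, that in H2-Aa 48 bases, and those in H2-Eb1 59 and 35 bases. The response element was present in 9 of 21 promoters of the interferon gamma list (42.9%) and 3.44% of all promoters, and ATTGG in 8 of 9 class II promoters (88.9%) and 37.4% of all. CACGTG, the E-box that MiT-TFE factors bind, was present in 9 of 35 lysosome promoters (25.7%) and 7.15% of all.

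**Figure D3:**
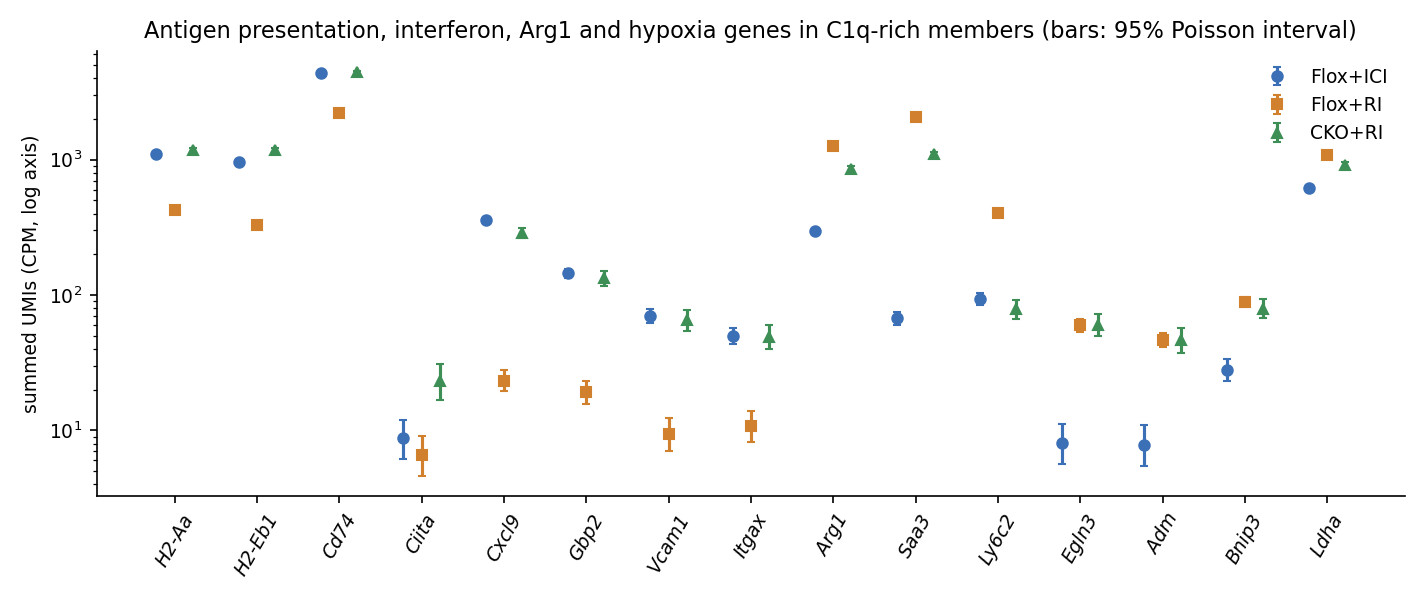
Antigen presentation, interferon, Arg1 and hypoxia genes in C1q-rich members. Each point is 1 library's summed level in CPM on a log axis with its exact Poisson 95% interval. H2-Aa, H2-Eb1, Cd74, Cxcl9, Gbp2, Vcam1 and Itgax are lowest in Flox+RI, Saa3, Arg1 and Ly6c2 are highest there, and Egln3, Adm and Bnip3 are low in Flox+ICI only.

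Arg1 was found in the largest share of members in Flox+RI, where Cxcl9 was found in the smallest. After thinning to 2000 UMIs, 96, 8 and 16 members had Cxcl9 and no Arg1 (14.8%, 0.878% and 11.03%), 117, 587 and 55 had Arg1 and no Cxcl9 (18.03%, 64.4% and 37.9%), and 28, 10 and 11 had both (4.31%, 1.10% and 7.59%). No UMI of either was seen in 408, 306 and 63 members. Of the 18 Flox+RI members with Cxcl9, 10 also had Arg1 and 8 lacked it, beside 65.5% with Arg1 over all thinned members there. Arg1 was found in 22.3% (19.2 to 25.7), 65.5% (62.3 to 68.6) and 45.5% (37.2 to 53.99), and in 33.3%, 78.3% and 58.7% without thinning. Cxcl9 was found in 19.1% (16.2 to 22.3), 1.98% (1.18 to 3.10) and 18.6% (12.6 to 25.9), and in 27.5%, 4.54% and 28.7% without thinning. In barcodes without C1q and Tyrobp, thinned alike, the shares were 0.521%, 3.67% and 1.09% for Arg1, and for Cxcl9 2.54%, 0% and 1.30%. Sorting cells by 2 of their own genes is a description of them. Members with Cxcl9 alone had H2-Aa at 2891, 1625 and 3031 CPM, and members with Arg1 alone had it at 474, 411 and 1100 CPM. Members with both had H2-Aa at 2446, 450.0000 and 2273 CPM, and members with neither at 919, 693 and 1468 CPM. Gpnmb was at 880, 500 and 375 CPM with Cxcl9 alone, 1855, 1067 and 945 CPM with Arg1 alone, 554, 1200 and 182 CPM with both and 2594, 948 and 857 CPM with neither. H2-Aa was thus high with Cxcl9 whether or not Arg1 was seen in Flox+ICI and under the CKO+RI label, and low with both genes in Flox+RI. The groups of 8 and 10 members with Cxcl9 in Flox+RI, and of 16 and 11 under the CKO+RI label, carry few UMIs, so their levels are imprecise.

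**Figure D4:**
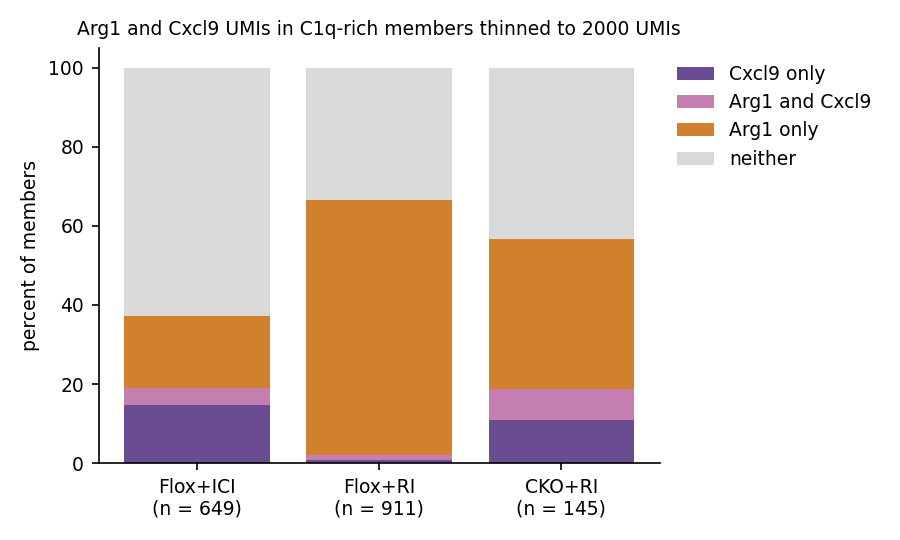
Arg1 and Cxcl9 UMIs in C1q-rich members thinned to 2000 UMIs. Stacked bars give the percent of members in each library with Cxcl9 only, both, Arg1 only or neither (649, 911 and 145 members). Members with Arg1 only are 64.4% in Flox+RI, and members with Cxcl9 only are 14.8% in Flox+ICI and 11.03% in the library labelled CKO+RI.

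Compared with Flox+RI, members under the CKO+RI label had more MHC class II and chemokine transcripts and less NRF2 and inflammatory cytokine transcripts. In the C1q-rich Mrc1 set the summed lists went the same ways. From Flox+RI to the CKO+RI label, class II genes there were at 1579 and 7553 CPM and chemokine genes at 6541 and 7543 CPM. NRF2 genes were at 5248 and 4668 CPM and inflammatory cytokine genes at 3949 and 2888 CPM. Of 9446 measured genes 428 (4.53%) were 2-fold or more higher and 496 (5.25%) lower, 924 (9.78%) in all, with a median log2 ratio of 0.11. Scaling by medians of ratios lowered the ratios by about 0.11 on the log2 scale and gave 295 higher and 588 lower. Over all members, the counts were 416 (3.37%) and 1274 (10.3%) of 12353 genes, 1690 (13.7%) in all. None of the 10 genes named as higher over all members was also among the 10 named in C1q-rich members, whereas 6 of the 10 lower genes were. The 150 C1q-rich members of this library limit the precision of every ratio with it.

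Among genes with UMIs in 10% or more of these members and at 0.5 times or more of the library's overall level, the one with the highest ratio was Mgl2, a lectin that binds galactose and N-acetylgalactosamine, at 9.20, 1.95 and 58.8 CPM, 30.2 (95% interval 16.2 to 62.2) times the Flox+RI level. The Mrc1 set had the same order of libraries, at 89.6, 11.9 and 124 CPM. Cxcl9 was 12.3 (95% interval 10.2 to 15.03) times, Gbp2 6.95 (95% interval 5.53 to 8.79) times and Vcam1, an adhesion molecule for leukocytes, 6.94 (95% interval 4.99 to 9.76) times the Flox+RI level, Vcam1 being at 70.2, 9.38 and 65.1 CPM. Cd72, a C-type lectin of B cells and macrophages, was at 40.5, 13.1 and 78.7 CPM. Mmp12, the macrophage elastase, was at 92.5, 50.96 and 259 CPM, 5.08 (95% interval 4.38 to 5.89) times, and Mmp13, a collagenase, at 9.44, 5.13 and 27.8 CPM. Genes for matrix and its proteases were split, with 2 of 22 higher, 3 lower and a median of 0.17. Itgax, the integrin CD11c, was at 50.2, 10.8 and 49.3 CPM and Cadm1, an adhesion molecule, at 85.6, 13.98 and 76.6 CPM. Apart from Mgl2, Cd72, Mmp12 and Mmp13, these genes were as high in Flox+ICI or higher, so Flox+RI was the library that stood apart. Snhg6, a noncoding RNA, was at 10.6, 7.96 and 47.2 CPM and had the same order in barcodes without C1q and Tyrobp, at 30.4, 22.3 and 78.9 CPM.

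Chemokines and their receptors had 6 of 19 measured genes 2-fold or more higher and 1 lower, with a median of 0.40. Ccl2, which draws CCR2-bearing monocytes, was at 209, 171 and 528 CPM, 3.09 (95% interval 2.82 to 3.37) times the Flox+RI level, and Ccl7, which also binds CCR2, at 59.4, 62.6 and 130.2 CPM. Ccl2 was at 408, 311 and 819.7 CPM in barcodes without C1q and Tyrobp, higher than in members. Ccl4, an inflammatory chemokine, was at 34.7, 74.5 and 177 CPM. Cx3cr1, the fractalkine receptor, was the 1 gene lower, at 88.6, 87.4 and 25.7 CPM. Of 20 measured interferon gamma response genes 8 were 2-fold or more higher and 1 lower, with a median of 0.40. Nos2, the inducible nitric oxide synthase, was at 7.82, 13.4 and 56.2 CPM and Cd274, the checkpoint ligand PD-L1, at 86.1, 60.5 and 148 CPM, both highest under the CKO+RI label. Jak1, the kinase of interferon receptors, was the 1 lower, at 242, 302 and 128 CPM.

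Type I interferon genes did not follow interferon gamma genes. Of 25 measured, none was 2-fold higher under the CKO+RI label than in Flox+RI and 7 were lower, with a median of -0.63. Irf7, the regulator that amplifies this response, was at 98.5, 186 and 29.4 CPM, 0.158 (95% interval 0.119 to 0.207) of the Flox+RI level. Isg15, a ubiquitin-like modifier, was at 104, 108 and 51.96 CPM and Ifit1, which binds foreign RNA, at 25.8, 12.6 and 2.62 CPM. Stat2 was at 24.2, 23.4 and 29.9 CPM, with an interval of the ratio that holds 1. Between Flox+RI and Flox+ICI, 5 of 27 were lower, none higher, and the median was -0.05, with Irf7 higher in Flox+RI and Ifit3 lower, at 32.9, 9.20 and 6.82 CPM.

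Inflammatory cytokine genes had 6 of 20 measured members 2-fold or more lower under the CKO+RI label than in Flox+RI, none higher, and a median of -0.49. Il6 was at 5.52, 20.4 and 1.57 CPM and Tnf at 171, 211 and 82.9 CPM, 0.394 (95% interval 0.331 to 0.465) of the Flox+RI level. Nlrp3, the inflammasome sensor, was at 87.7, 139 and 47.2 CPM and Cxcl2, a ligand that draws neutrophils, at 900.01, 1324 and 598 CPM. Il1b was closer together, at 180.4, 212 and 159 CPM. From Flox+ICI to Flox+RI 5 of 21 were 2-fold higher and 1 lower, with a median of 0.40. Egr1, an immediate early transcription factor, was at 177, 310.4 and 40.9 CPM and 0.132 (95% interval 0.104 to 0.166) of the Flox+RI level under the CKO+RI label.

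NRF2 and glutathione genes were lower under the CKO+RI label, and haem and iron genes were split. Of 31 measured NRF2 and glutathione genes none was 2-fold higher under the CKO+RI label than in Flox+RI, 3 were lower, 21 had an interval below 1, and the median was -0.51. Slc7a11 was at 164, 225 and 107 CPM, Gclm, a subunit of the enzyme that starts glutathione synthesis, at 148, 201 and 106 CPM and Prdx6, a peroxiredoxin, at 369, 661 and 261 CPM. Gsto2, a glutathione transferase, was at 39.1, 84.9 and 4.72 CPM and was also low under that label in the Mrc1 set, at 36.2, 100.4 and 3.23 CPM, and in barcodes without C1q and Tyrobp, at 14.9, 9.86 and 5.64 CPM. Prdx1, a further peroxiredoxin, was at 1332, 1157 and 1161 CPM, a ratio of 1.003 (95% interval 0.956 to 1.05). Between Flox+RI and Flox+ICI 1 was 2-fold higher and none lower, with a median of 0.21. Of 22 measured haem and iron genes 2 were 2-fold or more higher under the CKO+RI label than in Flox+RI and 4 lower, with a median of -0.09, and between Flox+RI and Flox+ICI 2 of 23 were higher and 1 lower, with a median of 0.0041. Slc48a1, which moves haem out of the lysosome, was at 206, 322 and 99.2 CPM, 0.308 (95% interval 0.264 to 0.358) of the Flox+RI level. Blvrb, a biliverdin reductase that acts after HMOX1, was at 378, 550.2 and 318 CPM and Ftl1, the ferritin light chain, at 20837, 22639.5 and 11232 CPM. Slc40a1, the iron exporter ferroportin, was at 19.1, 18.4 and 22.05 CPM, with intervals of both ratios that hold 1. Spic, a transcription factor of iron-recycling macrophages, was at 2.30, 13.1 and 5.25 CPM.

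Lipid genes went both ways, with more intervals below 1 than above it in both comparisons. Of 23 measured lipid-associated macrophage genes outside the rule, 2 were 2-fold or more higher under the CKO+RI label than in Flox+RI and 2 lower, with a median of -0.17. Their intervals lay below 1 for 13 and above it for 8. From Flox+ICI to Flox+RI, 2 of 25 were higher and 4 lower, with a median of -0.29. Intervals there lay below 1 for 18 and above it for 4. Apoc2, the apolipoprotein that activates lipoprotein lipase, was at 308, 748 and 115 CPM and Lpl, that lipase, at 77.6, 197 and 53.5 CPM, both highest in Flox+RI and lowest under the CKO+RI label. Plin2, which coats lipid droplets, was at 1014, 863 and 462 CPM, and Dgat2, which makes triglyceride, at 17.03, 20.7 and 3.15 CPM. Abca1, the cholesterol exporter, was at 271, 323 and 170.1 CPM and Lipa, the lysosomal acid lipase, at 252, 221 and 119 CPM. Spp1, osteopontin, was at 1869, 1601 and 1969 CPM, nearly level, and in barcodes without C1q and Tyrobp it was at 1038, 1749.9 and 2284 CPM. Cd9, a tetraspanin, was at 301, 262 and 445 CPM, highest under the CKO+RI label. Of the 27 measured genes for lipid uptake, storage and efflux, 1 was 2-fold higher under the CKO+RI label than in Flox+RI and 4 were lower, with a median of -0.36. Their intervals lay below 1 for 16 and above it for 4. From Flox+ICI to Flox+RI they lay below 1 for 9 and above it for 5, with a median of -0.07.

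Lysosome genes were a little lower under the CKO+RI label. None of 34 measured genes was 2-fold apart from Flox+RI, 21 had an interval below 1 and 2 above it, and the median was -0.33. Ctsd, the aspartic protease cathepsin D, was at 7859, 6303 and 3176 CPM, Ctsb at 4167, 3499 and 2323 CPM and Psap, prosaposin, at 4206, 3249 and 2584 CPM. Mitf, a transcription factor of Gpnmb and lysosome genes, was at 122, 186 and 134 CPM. Atp6v0d2 was at 213, 86.5 and 154 CPM, lowest in Flox+RI. In Flox+RI against Flox+ICI 3 of 35 were lower and none higher, with a median of -0.29, and Ctsk, cathepsin K, was among the 3, at 104, 38.8 and 43.6 CPM.

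Genes of the TREM2 pathway mostly lay within 2-fold between libraries. Of 17 measured genes outside the rule none was 2-fold apart between Flox+RI and the CKO+RI label, with a median of -0.17, and 1 was between Flox+RI and Flox+ICI, with a median of -0.25. Intervals lay below 1 for 7 genes and above it for 3 in the first comparison, and for 9 and 4 in the second. The 18 genes in the files, Apoe among them, summed to 32123, 21638 and 15752 CPM. Syk, the kinase recruited by TYROBP, was at 142, 120.2 and 146 CPM and Plcg2, a phospholipase downstream of it, at 78.9, 54.9 and 50.4 CPM. Inpp5d, the phosphatase SHIP1 that restrains TREM2 signals, was at 217, 123 and 124 CPM. Ms4a7 and Ms4a6c, membrane proteins of macrophages, were at 334, 186 and 275 CPM and 364, 407 and 210.5 CPM. Clu, clusterin, a lipoprotein ligand of TREM2, was the gene 2-fold apart, at 13.1, 45.3 and 34.6 CPM in members and 66.2, 119 and 92.99 CPM in barcodes without C1q and Tyrobp.

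**Figure D5:**
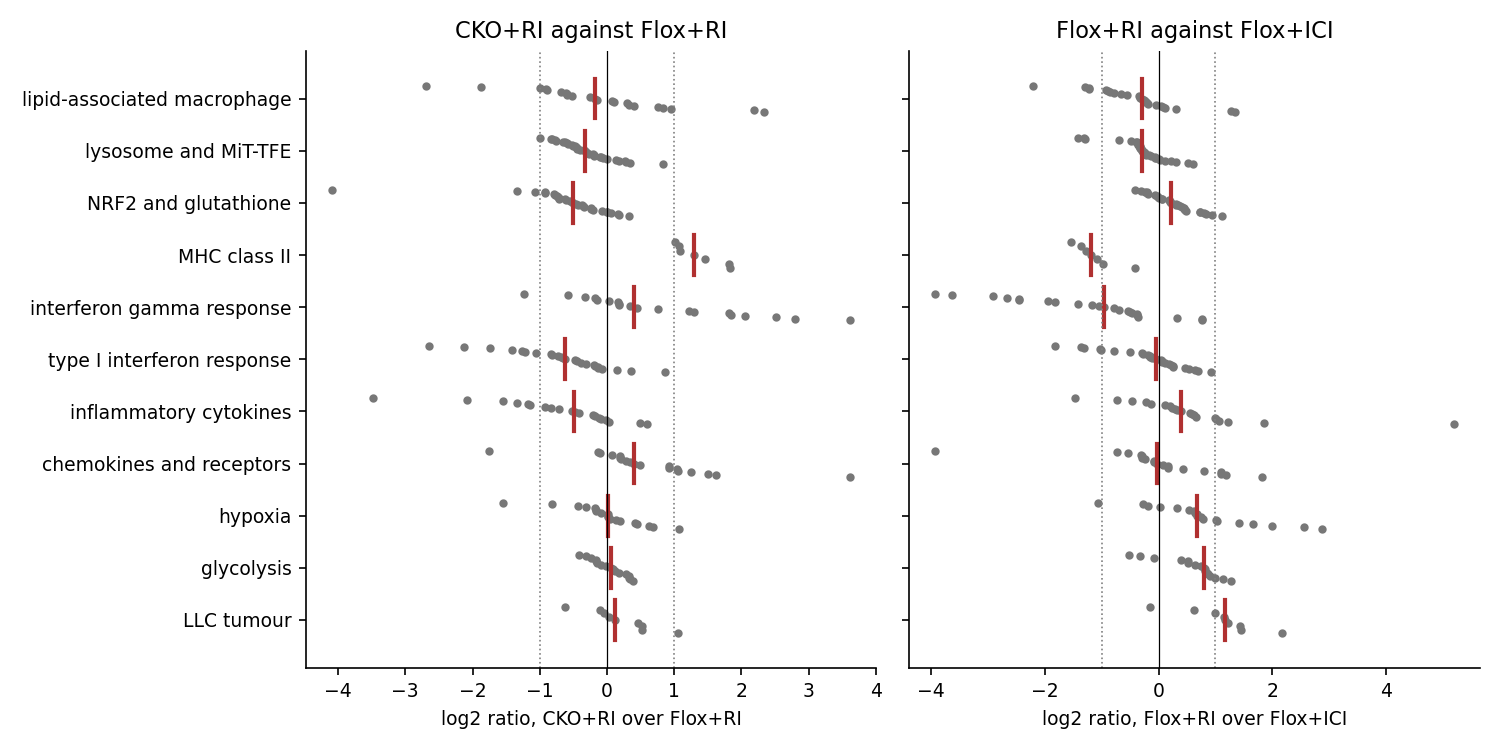
Gene lists in C1q-rich members. Each grey point is 1 measured gene's log2 ratio, left for the library labelled CKO+RI over Flox+RI and right for Flox+RI over Flox+ICI; red bars are list medians and dotted lines mark 2-fold. MHC class II genes lie right of 0 on the left panel (median 1.30) and left of 0 on the right panel (median -1.18), and hypoxia and glycolysis have medians of 0.68 and 0.80 on the right panel and 0.02 and 0.05 on the left. Both panels use the Flox+RI library.

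Genes low under the CKO+RI label included some that were also lowest there in barcodes without C1q and Tyrobp. Astl, an astacin protease, was at 61.2, 73.8 and 2.62 CPM in members, 42.3, 97.5 and 1.29 CPM in the Mrc1 set and 23.5, 12.4 and 4.16 CPM in barcodes without C1q and Tyrobp. Cadm4, an adhesion molecule, was at 20.5, 30.8 and 0 CPM in members and 5.003, 3.11 and 1.39 CPM in barcodes without C1q and Tyrobp. Its count of 0 under the CKO+RI label, set at a floor of 3 UMIs, made it at least 19.6-fold lower than in Flox+RI. These genes differ between libraries in cells of more than 1 kind.

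Transcripts of other cell types also moved with the libraries, and their part in the results was not tested. In C1q-rich members, 12 fibroblast genes summed to 191, 429 and 528 CPM, with 0, 0 and 1 of them at 0. The 10 alveolar type 2 genes summed to 1818, 489 and 433 CPM, with none at 0, and 9 erythroid genes to 162, 387 and 1415 CPM, with 1, 3 and 0 at 0. Under the CKO+RI label, 3 of 10 measured fibroblast genes were 2-fold or more higher than in Flox+RI and 3 lower, and 4 of 4 measured erythroid genes were higher. The 12 classical monocyte genes summed to 1554, 2277 and 1633 CPM and the 12 neutrophil genes to 1656, 713 and 1162 CPM, with none at 0 in either list. The 12 T cell genes stayed at 41.2, 27.4 and 30.97 CPM, with none at 0, and the 9 B cell genes at 15.9, 24.6 and 18.9 CPM, with 3, 0 and 5 at 0. In barcodes without C1q and Tyrobp the erythroid list summed to 1366, 838 and 5601 CPM and the alveolar type 2 list to 9799, 3237 and 3680 CPM. In the members with few tumour UMIs, the median log2 ratio to Flox+RI was, under the CKO+RI label, 1.73 for MHC class II and 0.73 for interferon gamma genes, larger than in all C1q-rich members. Cell cycle genes, by contrast, had a median of 0.54 over the C1q-rich members and 0.04 over those with few tumour UMIs.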

How the data were processed

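The authors deposited raw UMI counts per gene and barcode for 3 libraries, made with Cell Ranger 6.1.2 per the file headers (6.0 per the submitters' processing notes, where Seurat 5.0.3 and mm10/GRCm38 also stand), while the sources used here do not give the annotation. Members and gene lists were chosen with earlier results of these data known. The line at 5 C1q UMIs per 10000 was set after the data were seen. Counts were summed per library and set, with Python 3.11.15 (numpy 2.4.6, scipy 1.17.1, pandas 2.3.3) and scanpy 1.11.5 for doublets. Levels have exact Poisson intervals, and ratios exact conditional binomial ones. A gene was measured with at least 50 UMIs in the libraries compared, and counted as 2-fold apart after adding 0.5 UMI. The rule's 19 genes were left out. Of the macrophage check genes 9 were summed, and some genes of the lists are not reported here. Calls were tested on simulated counts with Poisson error only. Those counts hold no spread between cells or libraries, so that check does not cover such spread. With 1 library per group no test across libraries was possible.

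Named genes were the 10 highest and 10 lowest per comparison of libraries, and the 12 highest and 8 lowest between the sets, by the interval bound nearest to 1. Candidates had at least 50 UMIs in the higher side and UMIs in 10% or more of its cells. They also had 0.5 times or more of that library's overall level. The text gives only some of the named genes and leaves out others, F7 and Il7r among them. From each list it names up to 4 members by ratio and up to 2 with an interval holding 1, plus those needed to tell what the list is. Promoters came from RefSeq GRCm38.p6. Doublets were kept, and calls without them are an alternative.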

Additional observations from a re-analysis of the deposited data

How the results depend on the processing

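No paired analysis was possible because each group has 1 library. Of 121 checks on shares and counts of genes 2-fold apart, 73 stayed near the reported value and 48 moved. All 962 checks on named genes kept their direction and their side of the 2-fold line. These genes were picked for large ratios and were skipped below the UMI minimum, so such a result was likely beforehand. Of 1734 checks on list medians, 1594 stayed close to the reported value, whatever their sign. Another 134 moved further, and 6 checks on the larger medians changed sign. Alternatives on C1q-rich members, the stricter C1q line and the tumour UMI limit were chosen after seeing the data.

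Shares of kept barcodes over all members (7.50%, 9.78% and 5.08% in the usual order of libraries) became 8.25%, 10.997% and 1.58% of barcodes with 2000 UMIs or more, thinned to 2000 before gating, 5.23%, 5.64% and 1.43% with at least 10 C1q UMIs, 4.58%, 6.28% and 2.01% with no alveolar gene, and 6.35%, 7.25% and 1.66% for C1q-rich members. A 2 times margin gave 9.16% in Flox+RI and, under the CKO+RI label, 4.44%, where doublet removal gave 4.58%. Thinning before gating thus put the library labelled CKO+RI far lower than the rule as written.

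Genes 2-fold apart between Flox+RI and the CKO+RI label over all members (1690) became 514 when thinned, 836 with 10 C1q UMIs and 984 with no alveolar gene. They became 7112 with a UMI minimum of 1, 737 at 3-fold and 924 in C1q-rich members. They became 926 in splits, where members were chosen on a random part of each barcode's UMIs and genes counted on the rest. Between Flox+RI and Flox+ICI over all members (918) they became 230, 470 with 10 C1q UMIs, 1507 with a minimum of 20 and 4791 with 1, 242 at 3-fold, 587 in splits and 476 in C1q-rich members. Between the sets (284) they became 519 without doublets, 53 when thinned, 97 with 10 C1q UMIs, 825 with a minimum of 1, 69 at 3-fold, 82 in splits and 107 in C1q-rich barcodes. In C1q-rich members, the first (924 of 9446 genes measured) became 514 of 4683 when thinned and 568 of 7248 in splits. It became 1605 and 4797 with minimums of 20 and 1, and 323 at 3-fold. The second (476 of 10128) became 230 of 6053 when thinned, 890 and 5338 with those minimums and 95 at 3-fold. The third (107 of 8278) became 53 of 2768 when thinned, 335 with a minimum of 1 and 25 at 3-fold. A lower minimum or higher fold changes these counts by construction. The number of genes measured changed too, so a smaller count need not be a smaller share of them. The cause of the other changes was not tested.

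Only the larger list medians were checked for a change of sign, so smaller ones may also have changed. The larger medians that changed were those of other cell types. For alveolar type 2 genes under the CKO+RI label against Flox+RI (-0.51) it was 0.49 without doublets, 0.26 when thinned, 0.0201 in splits and 0.52 with few tumour UMIs. For fibroblast genes in Flox+RI against Flox+ICI (1.45) it was -0.13 without doublets, and for erythroid genes there (1.23) -0.53 with the margin. Doublet removal took 117, 193 and 78 members.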
